A study of Mus musculus with 6 samples.

Results

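The annexin A genes encode proteins that bind acidic phospholipids when calcium rises. A conserved core makes the calcium-dependent contact with the membrane, and an N-terminal tail that differs between members binds partners such as S100 proteins. Annexins are known for roles in membrane repair, in endocytosis and exocytosis and in coagulation at the cell surface, and several of them are abundant in secretory epithelia such as the bile duct lining. The 10 genes described here (Anxa1 to Anxa8, Anxa10 and Anxa11) were taken by symbol from the 55401 gene IDs of the count tables, and all 10 were found. They were picked as a family with results of the PLD against WT comparison already known, so their differences between these groups are given as a description without a test for each gene.

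The libraries held polyadenylated RNA of primary mouse cholangiocytes, the epithelial cells of the bile ducts, from mice of genotype PLD (polycystic liver disease) and from WT mice. Both groups were taken 3 months after tamoxifen, and each group had 3 libraries. The altered gene, the driver of the tamoxifen-induced change, the strain, the age and the sex of the mice are not given in the labels. Cells of the digested biliary tree were collected on magnetic beads with an antibody against EpCAM, an epithelial surface protein, so each library is a bead preparation and can hold other cells. Nothing in the labels states separate animals for the libraries of a group, and the spread between them may be technical. Levels are CPM (counts of a gene scaled to an equal number of reads in every library) after TMM scaling, a correction for the make-up of each library, and a log2 fold change is PLD over WT from edgeR's quasi-likelihood fit with its standard error (SE).

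Library totals ran from 15768561 to 16710548 counted reads. Markers of the bile duct were present in all libraries and higher in PLD, where their summed level was 25473 to 34674 CPM, against 7361 to 10333 CPM in WT, and 9 of 9 passed the test (edgeR adjusted p under 0.05). The 10 endothelial markers summed to 432 to 755 CPM in PLD and to 5314 to 7115 CPM in WT, and 10 of 10 were lower in PLD. The 12 fibroblast, stellate and smooth muscle markers summed to 1564 to 3736 CPM in PLD and to 7217 to 11592 CPM in WT, with 10 of 12 lower. No marker of these lists was at 0 in a whole group. In such bulk preparations fewer cells of a type and less RNA per cell cannot be told apart, and the part of cell make-up in the annexin differences was not tested.

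Annexin RNA as a whole took a larger share of the PLD libraries. The 10 genes held 0.662%, 0.619% and 0.575% of counted reads in PLD replicates 1 to 3, against 0.279%, 0.295% and 0.307% in WT replicates 1 to 3. Anxa2, Anxa3, Anxa4, Anxa7, Anxa8 and Anxa11 were higher in PLD, Anxa6 was lower, and Anxa1, Anxa5 and Anxa10 overlapped between the groups. All 10 passed the filter on low counts. In the fit over 15334 genes (edgeR adjusted p under 0.05) 6 of the 10 were called higher in PLD, where 27.0% of all genes were, and 1 was called lower, where 28.4% were, 55.4% in either direction. The PLD values lay wholly above the WT values for the same 6 genes, a pattern of 33.0% of all genes tested, and wholly below them for Anxa6, a pattern of 33.2%, which makes 66.2% in either direction. Since the family was picked on this contrast, nothing is read from these counts. The median log2 fold change of the 10 genes was 0.99 and that of all genes tested was 0.01.

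**Figure D1:**
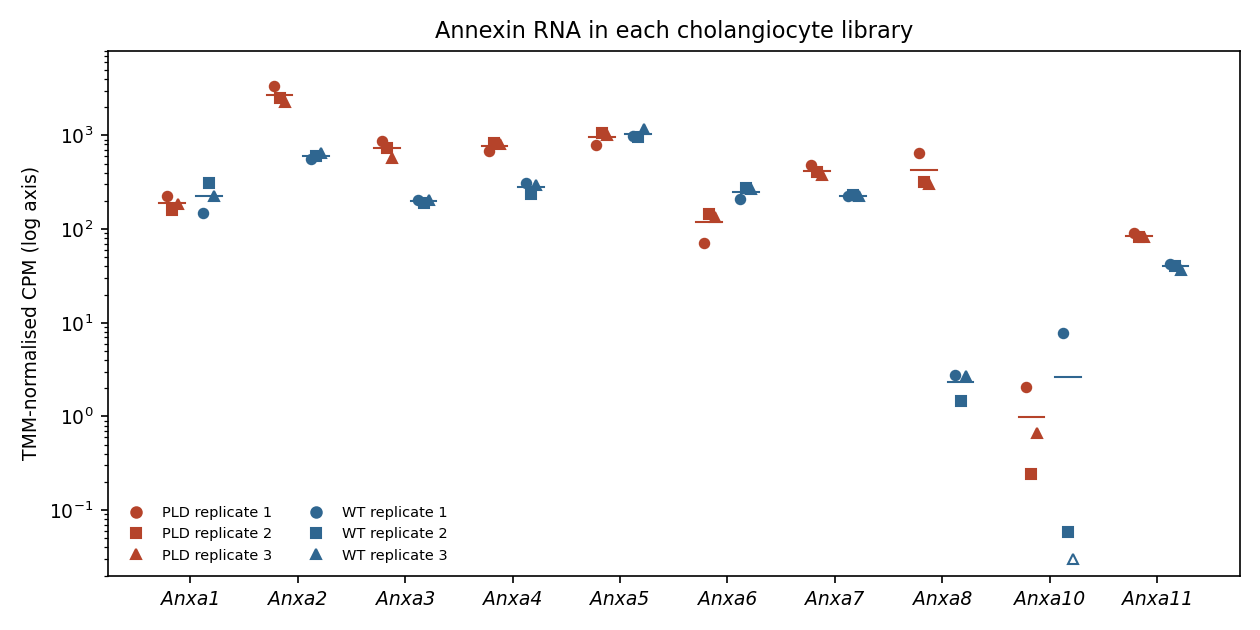
Level of each annexin gene in the 6 libraries, as TMM-normalised CPM on a log axis, with PLD (red) left of WT (blue), a symbol for each replicate and a bar at the group mean. Anxa8 sits between 300.0 and 649.7 CPM in PLD and between 1.47 and 2.77 CPM in WT, whereas Anxa5 overlaps between the groups, and the open triangle marks Anxa10 in WT replicate 3, which had 0 reads.

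Anxa8 (ENSMUSG00000021950.15, mm10 chromosome 14, 34085981 to 34100571, plus strand, 12 exon blocks) differed most. Annexin A8 is a scarce annexin in most tissues, found in stratified and some ductal epithelia, where it binds actin and late endosomal membranes. It had 9432, 5177 and 4996 reads in PLD replicates 1 to 3, against 47, 25 and 44 reads in WT replicates 1 to 3. As normalised levels these were 649.7, 316 and 300.0 CPM in PLD and 2.77, 1.47 and 2.72 CPM in WT. The groups were far apart, and PLD replicate 1 stood 2.17 times above the lowest PLD library. The log2 fold change was 7.50 ± 0.44 (SE), a 181-fold difference, and only 3 of the 15334 genes tested, Anxa8 among them, had a value at least as large. Leaving out each library in turn gave log2 fold changes between 7.06 and 7.71.

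Anxa2 (ENSMUSG00000032231.14, chromosome 9, 69453620 to 69491795, plus strand, 15 exon blocks) had the highest level in PLD. Annexin A2 forms a complex with S100A10 that links membranes to actin and serves as a docking site for plasminogen. It reached 3338, 2489.6 and 2294 CPM in PLD replicates 1 to 3, against 558, 599 and 649.7 CPM in WT replicates 1 to 3. The mean was 2707 ± 555 CPM in PLD and 602 ± 45.9 CPM in WT (SD, n = 3 each), with a log2 fold change of 2.17 ± 0.18 (SE). The lowest PLD library was still above every WT library.

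The starts of these genes are shown because Anxa8 and Anxa2 carried the largest differences upward, Anxa7 and Anxa11 moved most alike across libraries, and Anxa10 varied most between libraries of 1 group. Each sequence is the 250 bases before the RefSeq gene start (GRCm38.p6, the assembly of mm10), 5′ to 3′ on the strand of the gene, with matches of 4 motifs in capitals. All motifs were searched on both strands. The AP-1 motif was spelled TGANTCA. The motif of the TEAD factors was GGAATG. The TATA box was searched as TATAAA. The GC box was searched as GGGCGG. The windows lie at chr14:34085729-34085978 (plus) for Anxa8, chr9:69453433-69453682 (plus) for Anxa2, chr14:20479942-20480191 (minus) for Anxa7, chr14:25841905-25842154 (plus) for Anxa11 and chr8:62123194-62123443 (minus) for Anxa10.
Anxa8: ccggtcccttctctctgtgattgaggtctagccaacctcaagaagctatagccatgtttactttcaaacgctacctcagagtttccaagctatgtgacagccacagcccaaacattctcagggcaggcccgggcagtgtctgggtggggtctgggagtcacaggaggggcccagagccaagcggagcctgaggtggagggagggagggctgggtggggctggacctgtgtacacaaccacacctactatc
Anxa2: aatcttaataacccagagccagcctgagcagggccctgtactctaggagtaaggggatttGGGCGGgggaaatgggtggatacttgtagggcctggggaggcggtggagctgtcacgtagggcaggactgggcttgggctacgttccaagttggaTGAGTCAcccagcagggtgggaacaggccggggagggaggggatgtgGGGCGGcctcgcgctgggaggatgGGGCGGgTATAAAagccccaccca
Anxa7: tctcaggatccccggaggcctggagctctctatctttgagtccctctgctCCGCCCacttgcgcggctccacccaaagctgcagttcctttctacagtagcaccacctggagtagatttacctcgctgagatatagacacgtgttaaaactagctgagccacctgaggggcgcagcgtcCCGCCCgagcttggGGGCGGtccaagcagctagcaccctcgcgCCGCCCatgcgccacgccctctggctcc
Anxa11: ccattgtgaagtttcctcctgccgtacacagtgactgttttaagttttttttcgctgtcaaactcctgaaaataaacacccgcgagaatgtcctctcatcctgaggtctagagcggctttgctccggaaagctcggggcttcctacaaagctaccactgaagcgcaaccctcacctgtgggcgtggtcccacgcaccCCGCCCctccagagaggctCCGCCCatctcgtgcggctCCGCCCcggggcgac
Anxa10: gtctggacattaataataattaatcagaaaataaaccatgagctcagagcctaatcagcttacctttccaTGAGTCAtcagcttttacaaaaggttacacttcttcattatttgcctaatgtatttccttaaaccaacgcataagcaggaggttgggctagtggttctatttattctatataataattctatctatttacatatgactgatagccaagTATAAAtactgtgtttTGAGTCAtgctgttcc

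The Anxa8 window held none of the 4 motifs. The Anxa2 window had an AP-1 match 95 bases before the start, a TATA box 17 bases before it and 3 GC boxes. Its end runs into the gene as annotated for the counts, so the TATA box and the GC boxes at 48 and 24 bases lie inside that annotation. The Anxa10 window had 2 AP-1 matches and a TATA box 32 bases before the start. Anxa7 had 4 GC boxes in the window shown and Anxa11 had 3. That Anxa7 window lies mostly inside the gene as annotated for the counts (coordinates below). The other RefSeq window of Anxa7, chr14:20480134-20480383, lies just before the annotated gene. It held 1 GC box, 8 bases before its start, and had 42.4% GC, against 62% in the window shown. Among 32851 RefSeq promoters of the same length, 6.75% held the AP-1 letters, 12.6% the TEAD letters, 12.4% the TATA box and 32.7% the GC box. The RefSeq table matched 8 of the 10 genes, with 10 windows in all, and it had no entry for Anxa3 and Anxa6. GC content of these windows ran from 33.6% in Anxa10 to 64.8% in the window at the upstream start of Anxa4, against a median of 52.4% over all promoters. A match is a description of letters, and binding was not measured here.

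Anxa3 and Anxa4, which are found in epithelia, were also higher in PLD. Annexin A3 is best known from neutrophil granules and from tumour epithelia, and annexin A4 lies at the apical side of secretory epithelia, where it dampens calcium-activated chloride currents. Anxa3 (ENSMUSG00000029484.12, chromosome 5, 96793339 to 96845966, plus strand) had 878, 731 and 571 CPM in PLD and 203, 190.2 and 203 CPM in WT, replicates 1 to 3 in each case. All PLD libraries lay above all WT libraries, and the log2 fold change was 1.87 ± 0.17 (SE). Anxa4 (ENSMUSG00000029994.17, chromosome 6, 86736840 to 86793584, minus strand) had 673, 823 and 809 CPM in PLD replicates 1 to 3, against 308, 237 and 296 CPM in WT. Here PLD replicate 1 was the lowest of its group, the groups did not overlap, and the log2 fold change was 1.45 ± 0.15 (SE). Neutrophil markers summed to 7.39 to 19.3 CPM in PLD and to 20.7 to 40.0 CPM in WT, and the part of neutrophils in the Anxa3 values was not tested.

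Anxa7 and Anxa11, which have long N-terminal tails that bind EF-hand proteins such as ALG-2 (gene Pdcd6), were higher in PLD by smaller amounts. Annexin A7, also called synexin, promotes fusion of secretory granules, and annexin A11 tethers RNA granules to lysosomes. Anxa7 (ENSMUSG00000021814.17, chromosome 14, 20455260 to 20480133, minus strand) had 478, 402 and 382 CPM in PLD and 225, 228 and 224 CPM in WT. The WT libraries were nearly equal, and the log2 fold change was 0.90 ± 0.12 (SE). Anxa11 (ENSMUSG00000021866.15, chromosome 14, 25842156 to 25886804, plus strand) had 90.3, 81.6 and 82.2 CPM in PLD, against 42.8, 40.6 and 36.6 CPM in WT, with a log2 fold change of 1.08 ± 0.10 (SE). Of all pairs of annexin A genes these had the most similar profiles over the 6 libraries, with a root-mean-square difference of 0.13 between their centred log2 CPM values. The next closest pair among the 10 genes was Anxa2 and Anxa3, with 0.18.

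Anxa6 was the member that was lower in PLD without overlap. Annexin A6, whose core is duplicated, acts on endosomes and in cholesterol transport. Anxa6 (ENSMUSG00000018340.13, chromosome 11, 54979108 to 55033445, minus strand, 26 exon blocks) had 71.8, 146 and 136 CPM in PLD replicates 1 to 3, against 207, 273 and 269.5 CPM in WT replicates 1 to 3. PLD replicate 1 was lowest, and the log2 fold change was -1.08 ± 0.26 (SE). In that library the fibroblast, stellate and smooth muscle markers were also lowest, at 1564 CPM summed, against 3068 and 3736 CPM in the other PLD libraries. The log2 fold change of Anxa6 was closer to 0 than the marker medians, -2.22 for that list and -3.52 for the endothelial list, and the part of those cells in it was not tested.

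Anxa5 and Anxa1 overlapped between the groups. Annexin A5 binds exposed phosphatidylserine, which makes it the usual probe for apoptotic cells and a surface anticoagulant. Anxa5 (ENSMUSG00000027712.13, chromosome 3, 36448923 to 36475894, minus strand) had 782, 1069 and 1005 CPM in PLD and 978, 951 and 1161 CPM in WT. The log2 fold change was -0.11 ± 0.16 (SE). Annexin A1 is induced by glucocorticoids and limits inflammation through formyl peptide receptors. Anxa1 (ENSMUSG00000024659.15, chromosome 19, 20373428 to 20390944, minus strand) had 224, 160.1 and 187 CPM in PLD, against 148, 310.0 and 226 CPM in WT, and the WT libraries alone spanned 2.10-fold. The log2 fold change was -0.26 ± 0.26 (SE), with 0.03 ± 0.22 without WT replicate 2 and -0.49 ± 0.19 without WT replicate 1. The values of both genes differed by no more than the spread between libraries could give.

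Anxa10 (ENSMUSG00000031635.14, chromosome 8, 62057042 to 62123150, minus strand) had at most 30 reads in every library but WT replicate 1. Annexin A10 is known from gastric epithelium and lacks most of the calcium-binding sites of the family. It had 30, 4 and 11 reads in PLD replicates 1 to 3, against 132, 1 and 0 reads in WT replicates 1 to 3. The level was 2.07, 0.244 and 0.661 CPM in PLD and 7.79 and 0.0590 CPM in WT replicates 1 and 2. In WT replicate 3 the count of 0 allows up to 3 reads, or 0.185 CPM. The WT libraries thus spanned the PLD libraries on both sides. The log2 fold change was -1.42 ± 1.53 (SE), and without WT replicate 1 its sign turned, to 4.69 ± 1.41 (SE), a value that then rests on 1 WT read. By limma-voom with all libraries it was 1.35, again within its error.

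**Figure D2:**
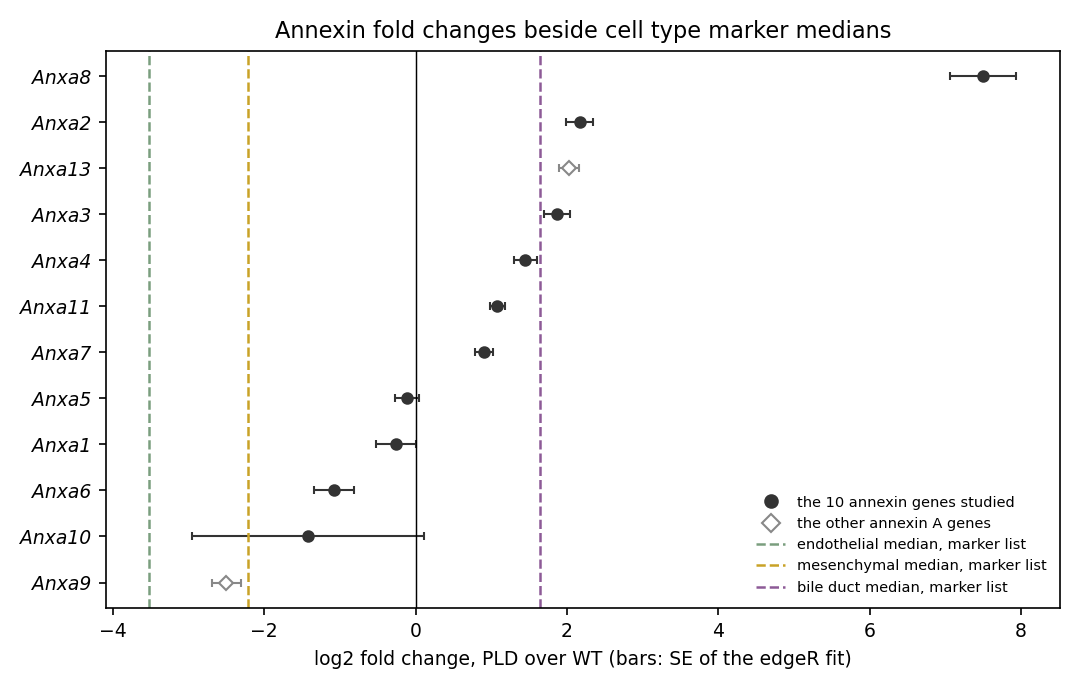
Log2 fold change of PLD over WT with the SE of the edgeR fit as bars, for the 10 annexin genes (filled circles) and for the other annexin A genes, Anxa9 and Anxa13 (open diamonds). Dashed lines give the median of the endothelial (-3.52), mesenchymal (-2.22) and bile duct (1.65) marker lists. Anxa8 lies far to the right of the bile duct line, Anxa4, Anxa7 and Anxa11 lie between 0 and that line, and the bar of Anxa10 spans 0, with a sign that turned without WT replicate 1.

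Profiles of other genes were also compared with that of Anxa10, which rests on few reads in most libraries. The rule for likeness took the smallest root-mean-square difference of centred log2 CPM over the 6 libraries and passed over genes whose mean log2 CPM was under 3. For Anxa10 it gave Dmbt1, a mucosal scavenger receptor, Cldn2 (difference 1.22), a pore-forming claudin, Slc4a4 (1.33), a bicarbonate transporter, Ceacam1 (1.33), an epithelial adhesion molecule, and Ctse (1.35), the protease cathepsin E. Dmbt1 had 6711, 1530.1 and 2163 CPM in PLD replicates 1 to 3, against 5718, 158 and 718 CPM in WT replicates 1 to 3. Ctse had 62.4, 36.2 and 34.6 CPM in PLD and 52.1, 1.71 and 5.81 CPM in WT. Both genes, like Anxa10, were highest in replicate 1 of each group. The rule picks for such likeness, so nothing is read from it.

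For Anxa8 the closest profiles belonged to Akr1b7 (0.47), an aldo-keto reductase gene, Krt20 (0.48), a keratin gene of gut and bladder lining, Msln (0.91), the mesothelin gene, and Atp6v0a4 (1.02), a proton pump subunit gene. Msln had 1156, 909 and 738 CPM in PLD replicates 1 to 3, against 17.5, 18.4 and 15.6 CPM in WT replicates 1 to 3. Among PLD libraries Msln was highest in replicate 1, as Anxa8 was, a likeness that the same rule picks for. Msln is also a marker of mesothelium. Of the 7 mesothelial markers examined, 2 were higher and 4 lower in PLD, and their summed level of 777 to 1181 CPM in PLD and 121 to 170.3 CPM in WT was mostly Msln. The marker Wt1 averaged 1.66 ± 0.0977 CPM in PLD and 11.2 ± 1.48 CPM in WT (SD, n = 3 each). The marker Upk1b went the other way, with 13.2 ± 3.76 CPM in PLD and 2.09 ± 0.897 CPM in WT. The part of mesothelial cells in the Msln and Anxa8 values was not tested.

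Divided by gene length, the make-up of the annexin pool differed between the groups. Anxa2 held 39.4%, 33.3% and 33.0% of annexin reads per kb in PLD replicates 1 to 3, against 15.0%, 15.3% and 15.0% in WT. Anxa5 held 19.4%, 30.0% and 30.3% in PLD and 55.2%, 51.1% and 56.1% in WT. Anxa2 was thus the leading annexin in every PLD library and Anxa5 in every WT library. Anxa8 held 15.2%, 8.37% and 8.55% in PLD, against 0.148%, 0.0749% and 0.124% in WT.

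Among the 10 genes, the order of the per-length shares in PLD was Anxa2, Anxa5, Anxa8, Anxa3, Anxa4, Anxa7, Anxa1, Anxa6, Anxa11 and Anxa10. Of neighbours in this order, Anxa8 and Anxa3, Anxa3 and Anxa4, and Anxa7 and Anxa1 overlapped between libraries. In WT the order was Anxa5, Anxa2, Anxa6, Anxa1, Anxa4, Anxa3, Anxa7, Anxa11, Anxa8 and Anxa10, with overlap of neighbours from Anxa6 to Anxa3 and between Anxa8 and Anxa10. Anxa6 took 2.02 ± 0.812% in PLD and 7.97 ± 0.899% in WT, and Anxa1 took 3.19 ± 0.393% in PLD and 7.30 ± 2.60% in WT (SD, n = 3 each). Anxa7 took 3.43% in PLD and 3.54% in WT, with overlapping libraries. Some places in both orders depended on the division by length. Without that division Anxa8 held 6.44% in PLD, below Anxa4 (12.2%), Anxa3 (11.3%) and Anxa7 (6.58%), and 0.0814% in WT. In WT Anxa4 then held 9.84%, above Anxa6 (8.72%) and Anxa1 (7.94%). Likewise undivided, the mean share of Anxa5 was 15.2% in PLD and 36.0% in WT, and that of Anxa2 was 42.1% in PLD and 21.1% in WT. Lengths were those of all annotated exons of a gene, and isoforms were not separated. Anxa13, an annexin A gene outside the 10, was not in this pool. Its mean level in PLD was 295 CPM per kb, above Anxa8 (224) and Anxa3 (199). In WT it was 72.3 CPM per kb, between Anxa1 (78.2) and Anxa4 (60.4).

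**Figure D3:**
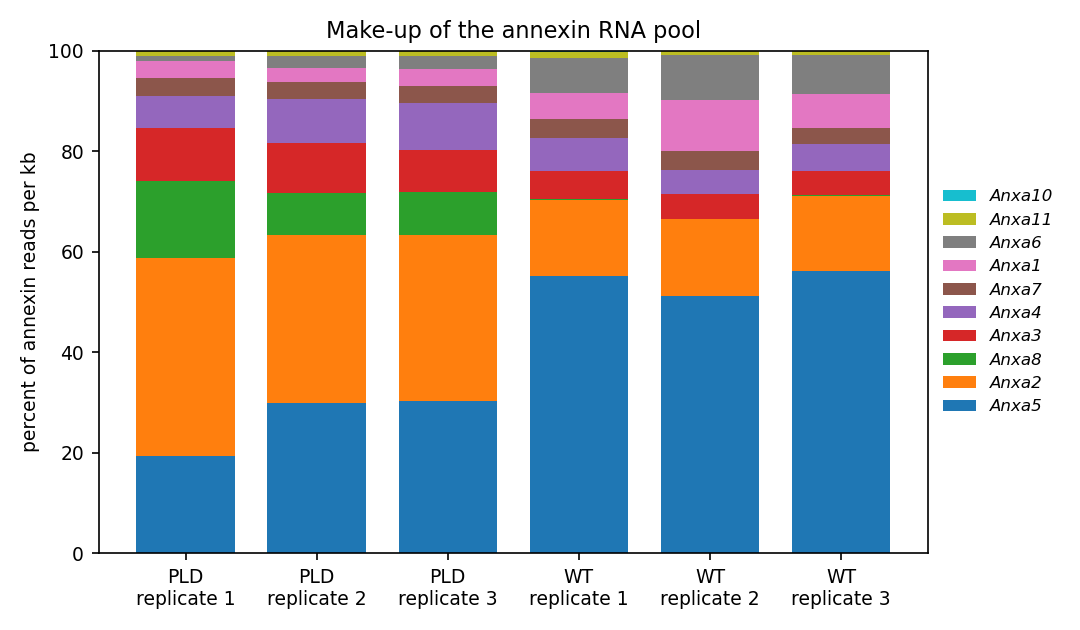
Share of each of the 10 annexin genes in their summed reads per kb of gene length, in percent. There is 1 bar for each library, with PLD left of WT, and Anxa9 and Anxa13 are not included. Anxa5 fills 51.1% to 56.1% of the WT bars and 19.4% to 30.3% of the PLD bars, and Anxa8 appears as a visible band in PLD and not in WT.

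Relative to reads of Epcam, the target of the bead selection, fewer annexins differed upward. Epcam itself had 15309 to 19783 reads in PLD and 4309 to 6742 reads in WT, so division by it lowers the PLD values of every gene. Of all genes tested, 1.90% had PLD values wholly above WT on this scale and 89.2% wholly below. Per 100 Epcam reads, Anxa8 had 47.7, 32.5 and 32.6 reads in PLD and 0.703, 0.580 and 0.653 reads in WT. Anxa2 had 245, 256 and 249.5 reads in PLD, against 142, 236 and 156 reads in WT, so the groups stood apart by little. These 2 genes had all PLD values above all WT values on this scale, and nothing is read from the count. Anxa3, Anxa4, Anxa10 and Anxa11 overlapped, with mean log2 ratios (PLD minus WT) of 0.23, -0.16, -0.22 and -0.54.

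On the same scale 4 of the 10 genes lay wholly below WT in PLD, as 89.2% of all genes tested did. Anxa5 had 57.4, 109.9 and 109.3 reads per 100 Epcam reads in PLD, against 248, 374 and 279 in WT. Anxa6 had 5.27, 15.0 and 14.8 in PLD and 52.6, 107 and 64.7 in WT. Anxa1 and Anxa7 were lower by mean log2 ratios of -1.83 and -0.73. Anxa7 was thus higher in CPM and lower per Epcam read in PLD.

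Relative to reads of the duct keratin gene Krt19, which differed by a log2 fold change of 3.26 (Epcam by 1.61), Anxa8 was the annexin whose PLD values stood wholly above WT, a position of 0.307% of all genes tested. It had 15.3, 7.88 and 8.44 reads per 100 Krt19 reads in PLD replicates 1 to 3, against 0.504, 0.504 and 0.697 in WT replicates 1 to 3. Anxa10 overlapped, and the other 8 lay wholly below WT, where 97.6% of all genes tested lay.

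**Figure D4:**
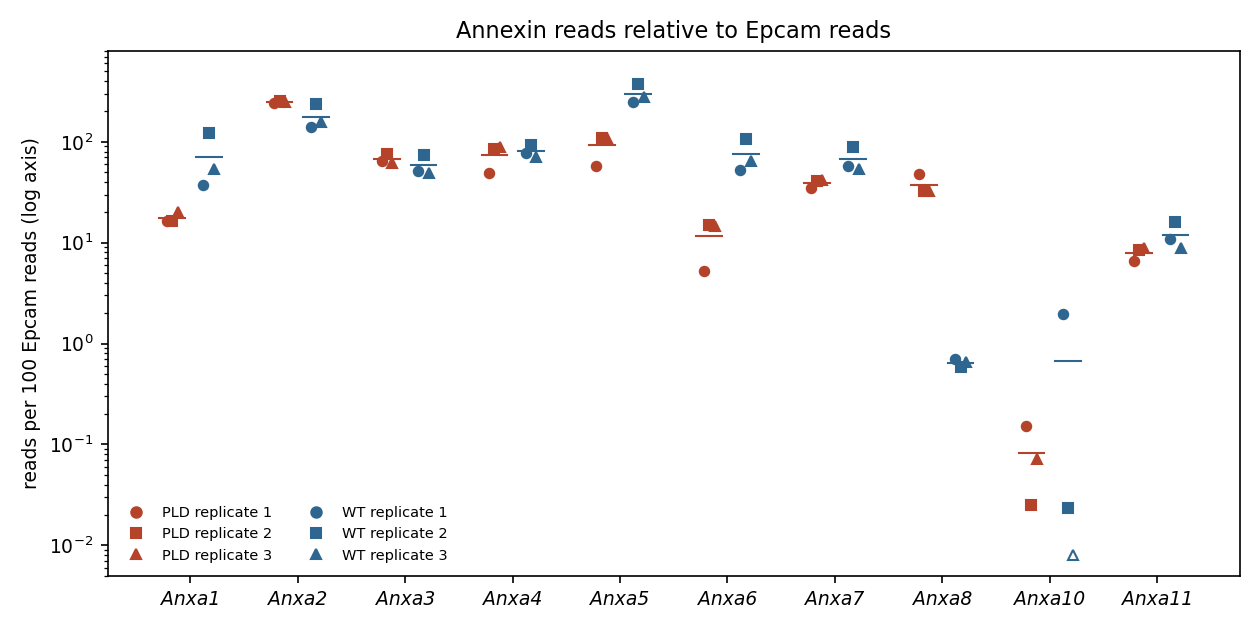
Annexin reads per 100 Epcam reads in each library on a log axis, PLD (red) left of WT (blue), with a symbol for each replicate and a bar at the group mean. Anxa8 is separated by far and Anxa2 narrowly, Anxa3, Anxa4 and Anxa11 overlap, and Anxa1, Anxa5, Anxa6 and Anxa7 are lower in PLD. The open triangle marks Anxa10 in WT replicate 3, which had 0 reads.

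Anxa13 and Anxa9, the annexin A genes outside the 10, went in opposite directions. Annexin A13 is myristoylated and known from apical transport in intestine and kidney epithelium. Anxa13 had 496, 483 and 431 CPM in PLD, against 129, 101 and 116 CPM in WT, and rose by 2.03 ± 0.13 on the log2 scale (edgeR adjusted p = 4.98e-05). Its profile was close to those of Anxa3 (root-mean-square difference 0.17) and Anxa2 (0.19). Anxa9, an atypical member without calcium binding, fell to 3.10, 2.62 and 3.00 CPM in PLD, against 18.3, 13.5 and 17.4 CPM in WT (log2 fold change -2.50 ± 0.19, edgeR adjusted p = 7.16e-05). The Anxa9 exons share 165 bases with other genes, among them Mindy1, which had 2256 to 2567 reads in PLD and 1350 to 1561 in WT.

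Of the S100 partners of annexins, 5 of 6 were called higher in PLD and 1 lower. Over all genes tested 27.0% were called higher and 28.4% lower. The lists were chosen with results known, so nothing is read from this count or from those of the lists below. S100a10, the partner of annexin A2, averaged 841 ± 133 CPM in PLD and 260.0 ± 36.0 CPM in WT (SD, n = 3 each), higher by 1.69 ± 0.17 on the log2 scale (edgeR adjusted p = 0.0002). S100a11, the partner of annexin A1, rose by 1.34 ± 0.15 (edgeR adjusted p = 3.27e-04), although Anxa1 overlapped between the groups. S100a6, which binds annexins A2 and A11, rose by 2.76 ± 0.22, S100b by 1.72 ± 0.32 and S100a1 by 0.72 ± 0.10. S100a4 had few reads, with 8, 12 and 14 in PLD and 27, 24 and 29 in WT. It fell by 1.16 ± 0.30 on the log2 scale (edgeR adjusted p = 0.0124). Without WT replicate 3 it was -1.07 ± 0.37 and not called (edgeR adjusted p = 0.0544).

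Genes of plasminogen activation went both ways, with 2 of 7 higher (27.0% of all genes tested) and 2 lower (28.4%). Plat, the tissue plasminogen activator, had 1288, 619.7 and 595 CPM in PLD, against 137, 176 and 167 CPM in WT, and rose by 2.38 ± 0.31 (edgeR adjusted p = 6.98e-04). The urokinase receptor gene Plaur averaged 2335 CPM in PLD and 541 CPM in WT. Plg, the plasminogen gene of hepatocytes, fell by 3.52 ± 0.53 on the log2 scale. Of 8 hepatocyte markers 2 were higher and 3 lower in PLD. Ahsg (-3.83), Cps1 (-4.11) and Hpd (-3.20) fell beside Plg, Ttr and Cyp2e1 rose by 0.69 and 1.81, and Alb, which held most of the summed level of the list, overlapped, with 1303, 5089.7 and 5512 CPM in PLD and 1085, 1752 and 1888 CPM in WT. The part of hepatocyte RNA in these differences was not tested.

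Membrane repair genes rose for 10 of 17 (27.0% of all genes tested) and fell for 1 (28.4%), with a median log2 fold change of 0.42. Pdcd6, encoding the ALG-2 partner of annexins A7 and A11, averaged 146 ± 17.6 CPM in PLD and 61.1 ± 2.50 CPM in WT (SD, n = 3 each), a rise that passed the test (edgeR adjusted p = 0.000148). The ALG-2 dimer partner gene Pef1 rose by 0.82 ± 0.10 and the ESCRT gene Chmp4b by 0.99 ± 0.12. Dysf, encoding the repair protein dysferlin, fell to 6.13, 9.09 and 13.2 CPM in PLD, against 89.1, 115 and 120.0 CPM in WT (log2 fold change -3.51 ± 0.27, edgeR adjusted p = 8.44e-05). The median of the endothelial markers was -3.52 in the same libraries, and the part of endothelial cells in the Dysf value was not tested. The count of repair genes called lower was 2 with no filter, with the filter of 1 CPM in 3 libraries, by DESeq2, by limma-voom, with a replicate block, and without PLD replicate 2 or WT replicate 1.

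Other calcium-dependent phospholipid binders, the copines and extended synaptotagmins, fell for 5 of 9 (28.4% of all genes tested) and rose for 2 (27.0%). Cpne2 fell by 2.47 ± 0.23, Esyt1 by 0.97 ± 0.10 and Cpne3 by 0.50 ± 0.10 on the log2 scale, and Cpne5 rose by 2.26 ± 0.45, with 2.14 CPM in PLD and 0.440 CPM in WT. Without PLD replicate 2, WT replicate 2 or WT replicate 3 the count of higher genes was 1. Among genes that set phosphatidylserine exposure, the ligand of annexin A5, 4 of 11 fell and 1 rose. The scramblase gene Plscr4 fell by 1.77 ± 0.13 and the flippase chaperone gene Tmem30a by 0.59 ± 0.10, and the flippase gene Atp8b1, mutated in familial cholestasis, rose by 1.05 ± 0.14 (edgeR adjusted p = 7.33e-04).

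Of the lists tied to annexin A1, the phospholipases A2 held calls in both directions, 1 higher and 4 lower. The calls among formyl peptide receptors (1 of 2) and glucocorticoid genes (5 of 9) were all lower. Over all genes tested 27.0% rose and 28.4% fell. Nothing is read from the counts of these lists. Of the formyl peptide receptors, Fpr2 had 1.10, 1.04 and 1.02 CPM in PLD, against 1.71, 2.30 and 2.16 CPM in WT. Its log2 fold change of -0.96 (edgeR adjusted p = 0.0170) did not pass when any of PLD replicates 2 and 3 and WT replicates 2 and 3 was left out (-0.87 to -0.94), and Fpr1 was not called (-0.37). Macrophage markers summed to 524 to 695 CPM in PLD and 376 to 454 CPM in WT, with 2 of 8 higher. Of the phospholipase A2 genes 4 of 8 fell, led by Pla2g5 (-3.59 ± 0.47), Pla2g4b (-2.94 ± 0.65) and Pla2g4a (-0.72 ± 0.15). Pla2g4b rested on few reads, 1, 3 and 0 in PLD and 12, 13 and 10 in WT. Pla2g12a rose by 0.56 ± 0.15, a call lost without PLD replicate 2, WT replicate 1 or WT replicate 3 (0.47 to 0.51). Of the glucocorticoid receptor gene and its usual targets 5 of 9 fell, among them Sgk1 (-1.77 ± 0.13), Klf9 (-1.79 ± 0.17), Zfp36 (-0.96 ± 0.14) and Per1 (-1.18 ± 0.20).

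Over all these lists, with Anxa9 and Anxa13, 22 of 71 tested genes rose and 24 fell. Over all genes tested 27.0% rose and 28.4% fell. Endothelial and mesenchymal markers were lower in the same libraries, as given above, and their part in the falls was not tested.

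**Figure D5:**
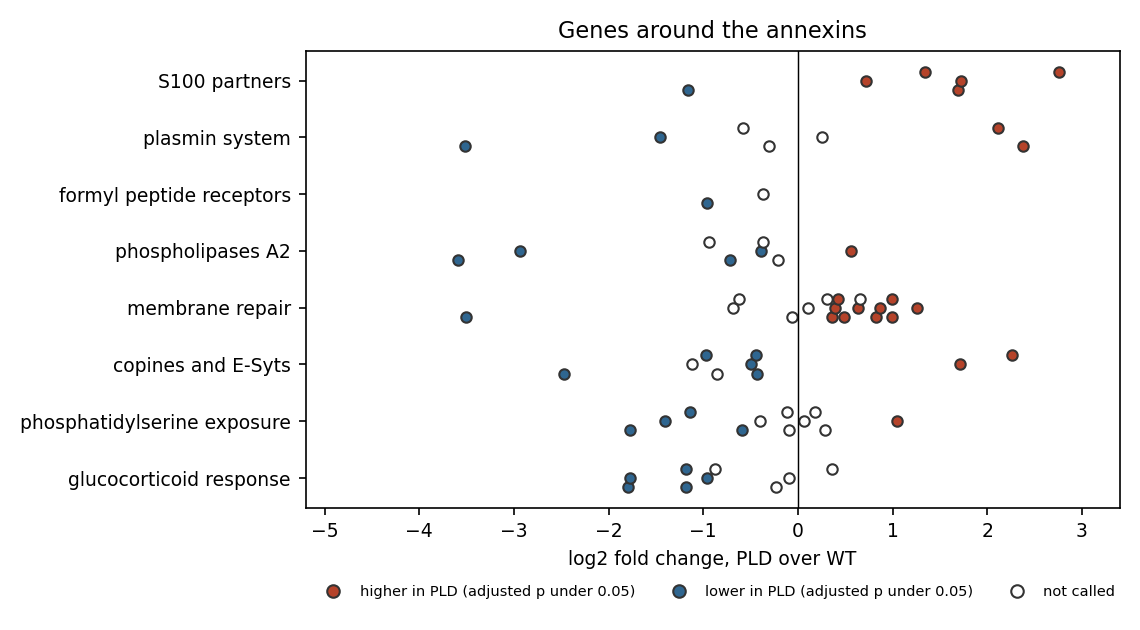
Log2 fold change of PLD over WT for each tested gene of the lists around the annexins, with 1 point for each gene, filled red or blue where higher or lower in PLD (edgeR adjusted p under 0.05) and open where not called. S100 partners and membrane repair genes lie mostly to the right of 0, with S100a4 and Dysf as the points called lower, and the glucocorticoid response genes called lie to the left of 0.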

How the data were processed

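Per the file headers, the authors deposited a table for each library with the raw counts of all genes, which came from featureCounts 1.6.0 on GENCODE vM25 of mm10 without options for strand or shared reads. The submitters' processing notes list STAR 2.7.4a, DESeq2 1.26.0 and SAMtools 1.12, with no role stated. Reads over bases shared by several genes, and reads that match several places, are dropped by the program's default. Of the 10 annexin genes, Anxa2, Anxa3, Anxa4 and Anxa11 share 75 to 113 exon bases with noncoding genes that had at most 51 reads in a library. Strand was not used, so reads in bases that Anxa11 shares with its antisense gene Anxa11os cannot be assigned to either.

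Symbols came from GENCODE vM21 by ID without version (55141 of 55401 matched). Counts were tested with edgeR 4.0.16 in R 4.3.3. The function filterByExpr kept 15334 genes, TMM factors (0.922 to 1.045) scaled the libraries, and PLD was compared with WT by the quasi-likelihood F test without covariates. Adjusted p is by Benjamini-Hochberg over all genes tested (threshold 0.05). The SE is the log2 fold change divided by the square root of F. A floor of 3 reads corresponds to 0.180 to 0.190 CPM, and intervals cover counting error only. Log2 ratios to Epcam or Krt19 used reads plus 0.5. The functions were tested on simulated data. Replicates of a group differed by more than sampling noise (chi-square per degree of freedom 9.72 to 63.9).

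The members and lists were chosen with earlier results of these data known. All S100 partners and the annexins outside the 10 are named, and the other lists give at most their 4 tested genes of lowest p. The 5 closest profiles are given for the member with the highest and the one with the lowest log2 fold change. Some genes that this rule names are not reported here. Wt1, Upk1b, Mindy1 and the hepatocyte markers named were chosen after their values were seen. Alternatives were RLE and upper-quartile factors, other filters on low counts, DESeq2 1.42.0, limma-voom (limma 3.58.1), a replicate block and leaving out each library. Protein sequences were not used here.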

Additional observations from a re-analysis of the deposited data

How the results depend on the processing

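Under 13 alternatives (upper-quartile or RLE scaling, a filter of 1 CPM in 3 libraries or none, DESeq2, limma-voom, a replicate block and leaving out each of the 6 libraries), Anxa2, Anxa3, Anxa4, Anxa6, Anxa7, Anxa8 and Anxa11 kept their direction and call. Anxa8 ranged from 7.06 to 7.71, Anxa3 from 1.72 to 2.03 and Anxa6 from -1.25 to -0.82 on the log2 scale. Anxa10 ranged from -2.51 to 4.69 when 1 library was left out, turned to 4.69 and was called without WT replicate 1, and was 1.35 by limma-voom. The filter of 1 CPM in 3 libraries removed it. The count of annexin genes called higher was 6 or 7, and 1 was called lower throughout. The count of membrane repair genes called lower was 1 or 2, and Fpr2 also missed the threshold with no filter (adjusted p 0.0544 to 0.0636 where lost). Over all genes, 3173 to 4183 were called higher and 3626 to 4562 lower. Of the genes around the annexins, 18 to 22 were called higher and 21 to 26 lower. Same-numbered libraries deviated together weakly (r = 0.16, 0.04 and 0.06 for numbers 1 to 3). PLD replicate 1 correlated best with its own number, against -0.09 and -0.12 with WT replicates 2 and 3. PLD replicates 2 and 3 did not, with 0.12 for WT replicate 3 and 0.1 for WT replicate 2. The numbers were not taken to pair the samples, and an effect shared by the libraries of number 1 was not tested. With the replicate block, 6 annexin genes were called higher and 1 lower, 3920 genes were higher and 4242 lower over all genes, and 22 genes around the annexins were higher and 26 lower. Read counts were low for Fpr2 (16 to 39 per library), S100a4 (8 to 29) and Anxa10 (0 to 132), and the spread of Anxa10 between WT libraries was wide at nearly equal depth.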

Other observations

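PLD replicate 1 was at an extreme of its group for all 10 annexin genes: highest for 7 and lowest for Anxa4, Anxa5 and Anxa6. Over all genes tested this library was highest for 41.2% and lowest for 41.5%.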
